A study of Homo sapiens with 12 samples.

Results

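Among the miRs measured in Saos-2 osteosarcoma cells and their CD99 transfectants, 7 of the miR-34 family and of the clusters that hold miR-192, miR-194 and miR-215 are described here: hsa-miR-34a, hsa-miR-34b, hsa-miR-34c-5p, hsa-miR-34c-3p, hsa-miR-192, hsa-miR-194 and hsa-miR-215. They were taken by name from the 851 human miR names of the deposited value table, with no use of their levels. The miR-34 miRs repress mRNAs of cell cycle and survival genes, and miR-34a is studied as a tumour suppressor in bone tumours. miR-192, miR-194 and miR-215 are best known from intestine, liver and kidney.

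The study asked how miR profiles change when osteosarcoma cells are pushed towards the osteoblast, the bone-forming cell. Saos-2 is a human osteosarcoma cell line, and Sa/CD99 denotes Saos-2 cells stably transfected with CD99, a cell surface protein, and selected with neomycin. Sa/CD99 was represented by clones 22 and 36, each 1 clone, and Saos-2 by the parental line with replicates 1 and 2. Both were profiled at day 0, day 7 and day 14 of osteogenic differentiation medium, with 2 arrays per cell type and day, or 12 arrays in 6 groups. Nothing in the labels says whether the Saos-2 replicates were separate cultures, so p-values measure the spread between these arrays, which may in part be technical. CD99 mRNA is not measured on miR arrays, so the transfection could not be checked here.

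The mature sequences of the measured miRs show which of them can be expected to share targets, since targets are chosen largely by the seed, bases 2 to 8, which is in capitals below. The sequences are written 5′ to 3′ from RefSeq, build GRCh38.p14. The array uses older names, in which miR-34b is the 3p arm and miR-34b* the 5p arm of the same hairpin.
miR-34a: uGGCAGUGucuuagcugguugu
miR-449a: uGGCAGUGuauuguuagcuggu
miR-449b: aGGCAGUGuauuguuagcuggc
miR-34b*: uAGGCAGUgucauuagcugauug
miR-34b: cAAUCACUaacuccacugccau
miR-34c-3p: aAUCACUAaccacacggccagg
miR-192: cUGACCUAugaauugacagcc
miR-215: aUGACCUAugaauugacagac
miR-194: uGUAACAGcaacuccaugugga
miR-34a, miR-449a and miR-449b have 1 seed in common, and miR-192 and miR-215 another. The seed of miR-34b* shares the run ggcagu with that of miR-34a, displaced by 1 base. miR-192 differed from miR-215 by 2 edits over its whole length, and miR-34a from miR-34b* by 4. No sequence of miR-34c-5p was at hand, so its seed was not compared with these, and it is followed by name.

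The 7 miRs described here come from 4 places in the genome. The miR-34a hairpin lies on the minus strand at chr1:9151668-9151777, within the long non-coding gene MIR34AHG. The hairpins of miR-34b (chr11:111512938-111513021) and miR-34c (chr11:111513439-111513515) lie on the plus strand with 417 bases between them, both spanned by BTG4 and MIR34BHG. On the minus strand of chromosome 11, miR-192 (chr11:64891137-64891246) lies within MIR194-2HG, 108 bases from 1 of the 2 hairpins that give miR-194. The other miR-194 hairpin is on the minus strand of chromosome 1, beside that of miR-215 (chr1:220117853-220117962), and IARS2 spans both.

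The sample labels of the value table and of the scanner arrays conflict. For each table column, 1 scanner array had the same detection state for 847 of 847 shared names, against 806 to 826 for the next best array. For 12 of 12 arrays the match was filed under another sample. Values below follow the labels of the value table, and the comparisons of cell types are repeated with the arrays as filed; which record is right was not settled.

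By the labels of the table, the day 0 arrays were dimmer than the others, with a total signal of 8523 to 11302 against 25162 to 62172, and 133 to 158 human miRs detected against 158 to 229. The arrays lay on 2 slides. All day 0 arrays and the Saos-2 day 7 arrays were on one, and all day 14 arrays and the Sa/CD99 day 7 arrays on the other. The comparisons of cell types at day 0 and at day 14 were therefore made within a slide. In the comparison of cell types at day 7, the changes from day 0 to day 14 in both cell types, the day 0 to day 7 change of Sa/CD99 and the day 7 to day 14 change of Saos-2, slide and group cannot be told apart. As filed, each slide held the 6 arrays of a single cell type, and cell type and slide cannot be told apart at any day. Of 7 mesenchymal marker miRs, 6 were detected on all arrays and miR-143 on none, whereas 0 of 6 haematopoietic, 0 of 7 epithelial and 0 of 1 liver markers were detected on any array. Of 4 muscle markers 1 was detected in each cell type, on some arrays, and the summed signal of the list reached 10.5 scanner units in Sa/CD99 and 4.3 in Saos-2. The part of these lists in the results was not tested.

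Of the 7 miRs, miR-34a and miR-34c-5p were detected and the other 5 were not detected on any of 12 arrays, whichever labels were used. miR-34a was detected on 10 arrays, 6 of 6 from Sa/CD99 and 4 of 6 from Saos-2. miR-34c-5p was detected on 5 arrays, 4 from Sa/CD99 and 1 from Saos-2. With the arrays as filed, miR-34a was detected on 4 of 6 Sa/CD99 and 6 of 6 Saos-2 arrays, and miR-34c-5p on 1 and 4.

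**Figure D1:**
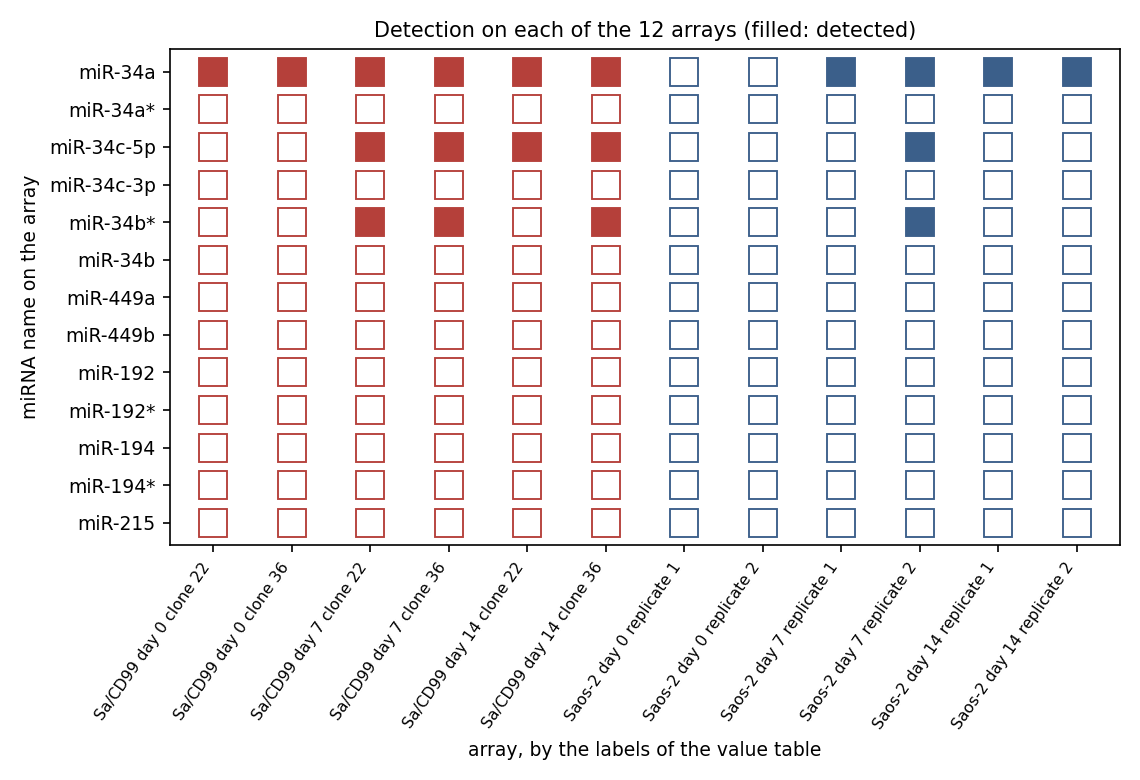
Detection of the 7 miRs, the opposite arms of their hairpins and the seed relatives miR-449a and miR-449b (rows) on each of the 12 arrays by table labels (columns), with filled squares for detected and open squares for undetected. miR-34a fills 10 of 12 squares, miR-34c-5p 5 and miR-34b* 4, and the remaining rows are open throughout.

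miR-34a was detected in CD99 transfectants on every day, and in parental Saos-2 cells from day 7. On the normalized log2 scale of the table it stood in Sa/CD99 at 3.27 and 3.45 at day 0 (clones 22 and 36), at 3.49 and 3.14 at day 7, and at 2.85 and 3.09 at day 14. In Saos-2 it was undetected on both day 0 arrays, where the table holds the column minimum of -3.03 and -3.13, and stood at 1.49 and -1.06 at day 7 and at 0.81 and 2.79 at day 14 (replicates 1 and 2). The 2 cell types did not overlap on any day, but at day 0 the Saos-2 values are the column minimum. At day 14 the nearest arrays, at 2.79 in Saos-2 and 2.85 in Sa/CD99, were almost level. The share of all miRs without overlap was not counted. At days 7 and 14 the Saos-2 arrays lay farther apart than the Sa/CD99 arrays.

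At day 0 miR-34a was detected on both Sa/CD99 arrays and on neither Saos-2 array. The limma fit over 219 miRs gave a log2 difference of 6.44 (SE 0.86, n = 2 per group, limma adjusted p = 0.00581), but the column minimum sets both the gap and the spread of the Saos-2 values, so neither the size nor the p is read as support. In the measured spots of the same arrays the limma adjusted p was 0.0897 in rma-like, 0.162 in uncorrected and 0.198 in normexp values. Between cell types within a day, the call needed an unadjusted limma value of at most 0.01 together with at least a 1.4-fold change, and 2.74% of all miRs tested met it at day 0. miR-34a was the 1 miR that met it with a higher table value in Sa/CD99 at day 0 (0.457% of those tested). That table call rests on the same column minimum and is a description, not support. miR-34a also met the rule in the rma-like values, but not in the uncorrected or normexp values.

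At day 7 miR-34a was higher in Sa/CD99 by a log2 fold change of 3.1 (SE 0.86, limma adjusted p = 0.23), which was called where 3.2% of miRs were, though its adjusted p did not pass 0.05. The call was lost without Sa/CD99 clone 22 (2.92), without clone 36 (3.28) and without Saos-2 replicate 2 (1.82). At day 14 the log2 fold change was 1.17 (SE 0.86, limma adjusted p = 0.472), which was not called, while 9.13% of miRs were. It was 0.18 without Saos-2 replicate 1 and 2.16 without replicate 2. Over all days the fitted difference was 3.57 (SE 0.50, limma adjusted p = 0.00771), and it includes the Saos-2 day 0 arrays at the minimum. With slide as a term of the fit, added after seeing the data, it was 3.8 (SE 1.05, limma adjusted p = 0.175) and was no longer called. Without that term 2.74% of miRs passed the threshold used over all days, an adjusted p of 0.05.

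**Figure D2:**
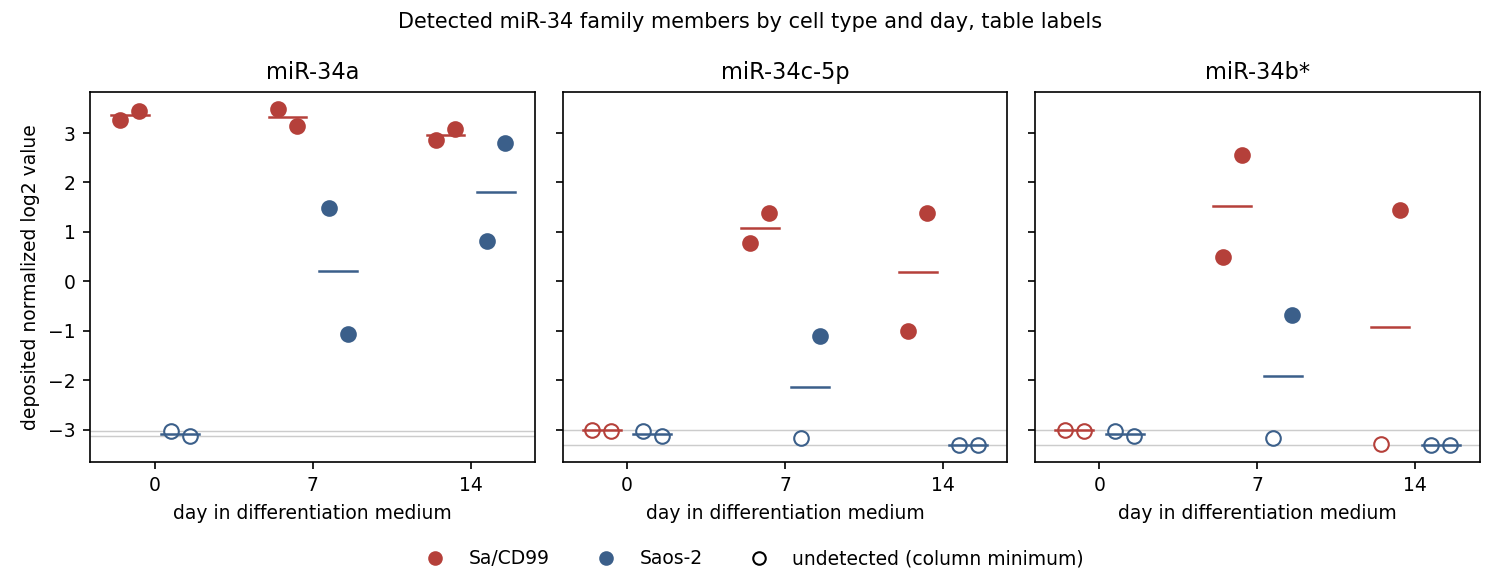
Normalized log2 value of the table (vertical axis) against day in differentiation medium for miR-34a, miR-34c-5p and miR-34b*, with 1 point per array, short lines for group means and grey lines for the lowest and highest column minimum among undetected values. The Sa/CD99 points of miR-34a lie between 2.85 and 3.49, above every Saos-2 point, and open points mark undetected values.

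The size of the miR-34a difference depended on how the signal was treated. With the scanner spots of the same arrays under the table labels, background-corrected and quantile-normalized in the manner of rma, the log2 fold change was 1.33 (SE 0.31, limma adjusted p = 0.0897) at day 0, 1.2 (SE 0.31, limma adjusted p = 0.221) at day 7 and 0.47 (SE 0.31, limma adjusted p = 0.395) at day 14. Without background correction these fell to 0.26, 0.22 and 0.07, none of them called. With the arrays as filed the direction turned, to -0.25 (limma adjusted p = 0.719), -1.50 (limma adjusted p = 0.547) and -1.05 (limma adjusted p = 0.205). Over all days miR-34a was then lower in Sa/CD99 by a log2 value of -0.94 (limma adjusted p = 0.039). In that comparison 91 of the 213 miRs tested were called, and cell type and slide were not separable under that filing.

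**Figure D3:**
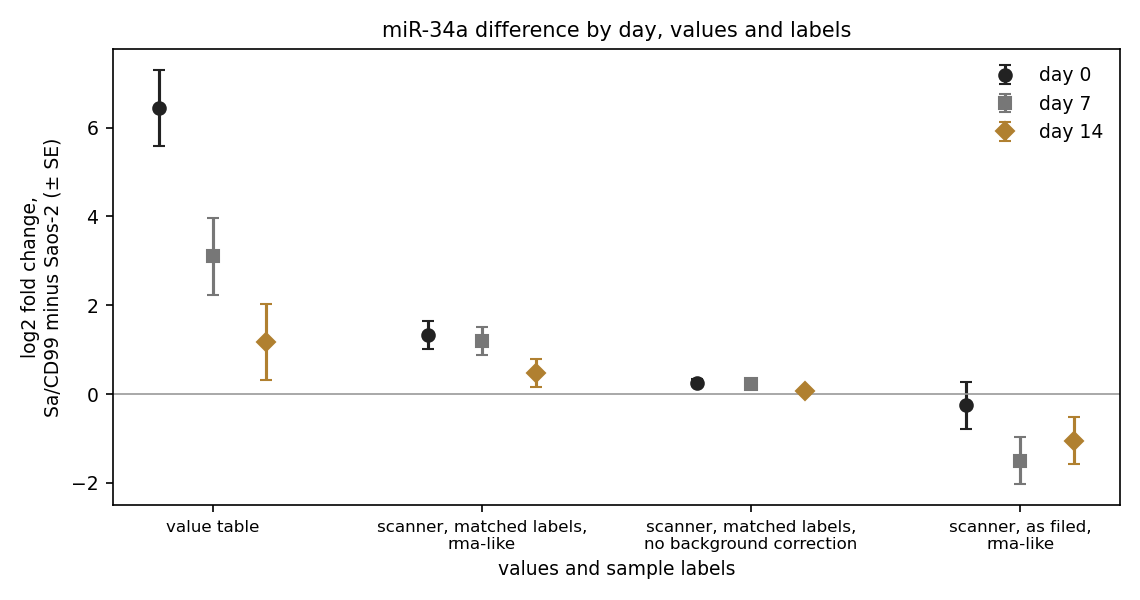
Log2 fold change of miR-34a, Sa/CD99 minus Saos-2, with its standard error (vertical axis) at days 0, 7 and 14, for the value table and for 3 treatments of the scanner arrays (horizontal axis). The day 0 value moves from 6.44 in the table to 1.33, 0.26 and -0.25.

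miR-34a was dim on all arrays, and its probes give the levels behind these values. The signals of its 2 probes summed to 4.86 and 6.69 scanner units in Sa/CD99 at day 0, to 13.4 and 10.5 at day 7 and to 14.8 and 17.8 at day 14. In Saos-2 the sums were 2.85 and 1.67 at day 0, 4.63 and 7.34 at day 7, and 7.44 and 17.1 at day 14. The sums were higher on the later days in both cell types, as was the total signal, and those of Saos-2 at day 0 were the lowest.

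Expressed per 10000 units of the total signal of the array, a description added after the data were seen, the sums were 5.37 and 7.85 in Sa/CD99 at day 0, against 3.01 and 1.48 in Saos-2. They were 3.29 and 2.59 against 1.84 and 1.30 at day 7, and 2.59 and 2.87 against 1.87 and 3.69 at day 14. The cell types were apart at day 0 and day 7 and overlapped at day 14. Of the 16 spots for miR-34a, 6 and 10 exceeded the 95th percentile of negative control spots on the Sa/CD99 day 0 arrays and 2 and 2 on the Saos-2 day 0 arrays, whereas 15 or 16 did on the later Sa/CD99 arrays. In Saos-2, 8 and 11 spots did so on the day 7 arrays, and 14 and 16 on those of day 14.

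**Figure D4:**
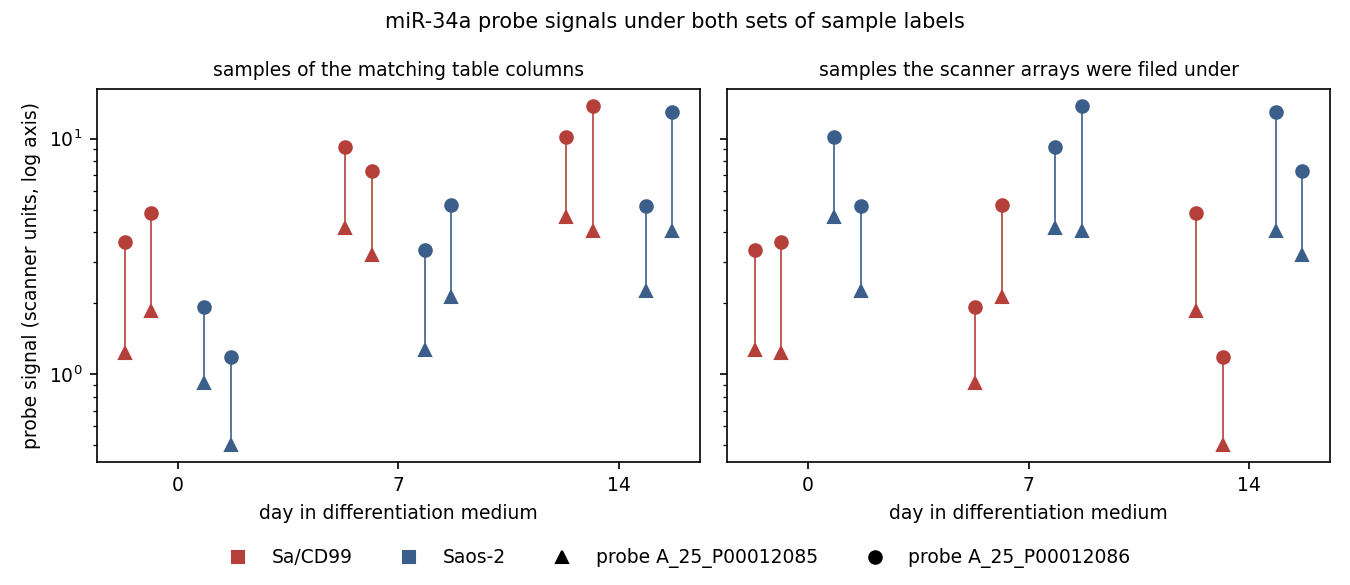
Signal of each of the 2 miR-34a probes in scanner units on a log axis (vertical) against day in differentiation medium, with 1 vertical line per array joining its probes, under the labels of the matching table columns (left) and under the samples the arrays were filed as (right). On the left the Saos-2 day 0 arrays are the dimmest, with sums of 2.85 and 1.67, and on the right the same arrays appear as Sa/CD99 at days 7 and 14.

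Between days, miR-34a changed by -0.04 from day 0 to day 7, by -0.35 from day 7 to day 14 and by -0.39 (SE 0.86, limma adjusted p = 0.693) from day 0 to day 14 in Sa/CD99 on the log2 scale of the table. None was called, although 32% of miRs were called between day 0 and day 7, 19.6% between day 7 and day 14 and 74.4% between day 0 and day 14. The sign of the last change was positive in the rma-like values (0.37) and in the table centred on miRs detected on all arrays (0.73), and with total gene signals scaled at the 75th percentile the rise of 1.31 was called. As filed, the changes were -0.82 from day 0 to day 7, 0.15 from day 7 to day 14 and -0.67 from day 0 to day 14, none of them called. No direction is therefore given for miR-34a over time in the transfectants.

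In Saos-2 miR-34a went from undetected on both day 0 arrays to detected on both day 14 arrays (limma adjusted p = 0.00257), in a comparison in which 55.7% of miRs were called. This p, like that of day 0 to day 7, sets measured values against the column minimum. Per 10000 units of total signal the Saos-2 day 0 arrays, at 1.48 and 3.01, overlapped those of day 7, at 1.30 and 1.84, and those of day 14, at 1.87 and 3.69. From day 0 to day 7, both on 1 slide, the limma adjusted p was 0.0191 with 36.5% of miRs called, and no fold is given, since miR-34a was undetected at day 0. This call was lost in the rma-like (log2 change 0.57), uncorrected (0.12) and normexp (0.06) values, with only the 2 groups compared (limma adjusted p = 0.0691), as filed (0.43) and without day 0 replicate 1, day 0 replicate 2 or day 7 replicate 1. From day 7 to day 14 the log2 change was 1.58 (SE 0.86, limma adjusted p = 0.552), ranging from 0.3 without day 7 replicate 2 to 2.86 without day 7 replicate 1, and limma called 0 miRs in that comparison, with 19 at an unadjusted p of 0.05. As filed, the change from day 0 to day 14 was 0.13 and was not called. Whether the change differed between cell types did not pass the threshold, with a limma adjusted p of 0.159 for the interaction of cell type and day, where 1.83% of miRs passed. As filed that p was 0.992.

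miR-34c-5p, the other detected member, was detected mostly on Sa/CD99 arrays of days 7 and 14, which were brighter than those of day 0. It was undetected on both Sa/CD99 day 0 arrays, and stood at 0.78 and 1.39 at day 7 and at -1.0 and 1.39 at day 14 on the log2 scale of the table. In Saos-2 it was detected on 1 of 6 arrays, day 7 replicate 2, at -1.10. On this scale the cell types did not overlap at day 7 or at day 14, but the undetected Saos-2 arrays hold the column minimum there. The share of all miRs without overlap was not counted. At day 0 neither cell type was above detection.

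Per 10000 units of total signal, the summed probes of miR-34c-5p gave another picture, 1.69 and 2.33 in Sa/CD99 against 1.25 and 2.58 in Saos-2 at day 0, and 1.21 and 1.56 against 0.77 and 1.11 at day 7. At day 14 they were 0.72 and 1.86 against 0.81 and 0.76. On this scale the cell types overlapped at days 0 and 14, and the Sa/CD99 arrays of days 7 and 14 were not above both arrays of day 0.

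miR-34c-5p entered the limma fit through Sa/CD99 day 7 and day 14 alone, the groups in which it was high, so its fitted differences are given as a description and support no call. They were 3.21 at day 7 and 3.49 at day 14 on the log2 scale, the latter against Saos-2 arrays at the column minimum. In the rma-like values under the table labels the differences were 0.33 and 0.60, and as filed they were -0.61 and -0.25.

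The same holds for the changes of miR-34c-5p within Sa/CD99. No fold is given for them from the table, since it was undetected at day 0. In the rma-like values the log2 changes were 0.72 from day 0 to day 7 and 0.79 from day 0 to day 14.

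The 5p arm of the neighbouring hairpin, miR-34b*, was detected largely on the same arrays as miR-34c-5p. It stood at 0.49 and 2.56 in Sa/CD99 at day 7 and at 1.44 on clone 36 at day 14, was undetected on clone 22 at day 14, and was detected in Saos-2 on day 7 replicate 2 alone, at -0.68. All 4 arrays with miR-34b* also had miR-34c-5p, and Sa/CD99 clone 22 at day 14 had miR-34c-5p without miR-34b*. miR-34b* entered the fit through Sa/CD99 day 7 alone, so its fitted differences between cell types are a description with no test. They were 3.44 at day 7 and, against Saos-2 arrays at the column minimum, 2.38 at day 14 on the log2 scale. Without clone 36 the day 14 value was 0.01 and without clone 22 it was 4.75. Per 10000 units of total signal it stood at 2.68 and 3.72 in Sa/CD99 at day 0 and at 1.44 and 1.94 at day 7, higher at day 0 than at day 7. In Saos-2 it stood at 3.41 and 2.0 at day 0 and at 1.18 and 1.07 at day 7, so that the cell types overlapped at day 0 and were apart at day 7. At day 14 they overlapped, at 0.8 and 1.71 in Sa/CD99 against 0.97 and 1.02 in Saos-2.

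The remaining members and arms were at background. The 3p arms miR-34b and miR-34c-3p, as well as miR-192, miR-194 and miR-215, were undetected in both cell types on every day. Of 192 spots each over the 12 arrays, 0 exceeded the 95th percentile of negative control spots for miR-34b, 1 for miR-34c-3p, 2 for miR-192, 1 for miR-194 and 2 for miR-215. The opposite arms miR-34a*, miR-192* and miR-194* and the seed relatives miR-449a and miR-449b were likewise undetected on 12 of 12 arrays, with 2, 2, 5, 4 and 8 such spots. A level under the detection limit of these arrays cannot be told apart from absence.

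The miRs whose table values ran most like those of miR-34a over the 12 arrays were miR-874 (Pearson r = 0.636), miR-1207-5p (r = 0.555) and miR-1225-3p (r = 0.545), out of 184 candidates. Their Spearman coefficients were 0.245, 0.049 and 0.371. The arrays share slides and depth, and each of the 3 was undetected on 1 Saos-2 day 0 array, where miR-34a was undetected too. miR-34c-5p was detected on too few arrays for such a ranking.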

How the data were processed

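Total RNA was labelled with Cy3 and hybridised to 12 Agilent human miRNA arrays, 2 per group. The authors extracted spot intensity values with Feature Extraction and deposited them without normalization. A second deposited file gives log2 values per miRNA, whose ranks equalled those of the total gene signal on every matched array (Spearman 1.0) with undetected miRNAs at the column minimum; its normalization is not described in it, and RMA is named in the submitters' processing notes. The slope of the table on the log2 signal ranged from 0.87 to 1.431, so equal signals received different values on different arrays.

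The table by its own labels gave the main values. The members, lists, tests and the choice of labels were made with earlier results of these data known, under both label sets. A miRNA was tested if 1 or more groups had it detected on each of their arrays, which held for 219 of 851. limma 3.58.1 on R 4.3.3 fitted 6 groups, with 6 residual degrees of freedom. Cell types were compared within a day at a p of at most 0.01 and a fold change of at least 1.4 (log2 0.485), all else at a Benjamini-Hochberg adjusted p of 0.05. Where all arrays of a group left a miRNA undetected, a fitted table difference rests on the column minimum and is not read as a fold. A bound set by the lowest detected values of those arrays was dropped, since for miR-34a at day 0 it exceeded the ratio of the probe signals. The fit was tested on simulated data. Alternatives were the scanner arrays as filed, the scanner arrays under the table labels with rma-like, normexp (offset 50), uncorrected and 75th percentile values, a centred table, other filters, a replicate block and each array left out. Named miRNAs were the members, the opposite arms, miRNAs with a member's seed and the 3 with the highest Pearson r. The small number of arrays limits the precision. The mRNA arrays of the study were not used here, and 2 further lists of miRNAs are not reported here.

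Clones pair the Sa/CD99 arrays across days. Deviations from group means of same-numbered arrays correlated at 0.034, 0.184 and 0.072 in Sa/CD99, and at 0.182, 0.18 and 0.203 in Saos-2, where nothing says what a number marks. In the scanner arrays under the table labels these were 0.284, 0.3 and 0.188 in Sa/CD99 and 0.3, 0.437 and 0.284 in Saos-2, with a block correlation of 0.206. As filed they ranged from -0.901 to 0.215.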

Additional observations from a re-analysis of the deposited data

How the results depend on the processing

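Log2 fold changes are Sa/CD99 minus Saos-2 unless days are named, and the cause of a change was not tested. With the arrays as filed, miR-34a turned to -0.25, -1.5 and -1.05 at days 0, 7 and 14 and -0.94 over all days, miR-34c-5p to -0.61 and -0.25 at days 7 and 14 and -0.32 over all days, miR-34b* to -0.44, -0.26 and -0.35. As filed, the changes of miR-34a were 0.15 (day 7 to 14, Sa/CD99), -0.3 (day 7 to 14, Saos-2) and 0.13 (day 0 to 14, Saos-2, no longer called), and those of miR-34c-5p in Sa/CD99 0.28 (day 0 to 7) and 0.17 (day 0 to 14), neither called. Apart from the 3 given as not called, these signs are opposite to those of the table. Under the table labels without background correction and with normexp, miR-34a lost its calls at day 0 (0.26 and 0.09), day 7 (0.22 and 0.06) and over all days (0.18 and 0.06); with only the 2 groups compared the day 7 value of 3.1 was not called, and with slide as a term, added after seeing the data, the value over all days was 3.8 and not called. The miR-34a change in Sa/CD99 turned positive in the rma-like, uncorrected, normexp, 75th percentile and centred values, at 0.43, 0.08, 0.03, 0.88 and 0.43 from day 0 to 7 and at 0.37, 0.06, 0.03, 1.31 and 0.73 from day 0 to 14, and in the last 2 at 0.43 and 0.31 from day 7 to 14. The interaction for miR-34a reached an adjusted p of 0.00324 in the 75th percentile values. The fitted values of miR-34c-5p, which support no call, no longer passed the threshold in the rma-like, uncorrected and normexp values at day 7 (0.33, 0.06, 0.02), at day 14 (0.6, 0.12, 0.02), from day 0 to 7 (0.72, 0.15, 0.03) and from day 0 to 14 in Sa/CD99 (0.79, 0.16, 0.04). At day 7 the same held at the 75th percentile (2.75), with undetected values missing (2.18) and with only the 2 groups compared (3.21), as at day 14 (3.49), while centring brought the value over all days (2.37) past the threshold. Its change from day 7 to 14 turned in Sa/CD99 to 0.07, 0.02, 0.01 and 0.35 (the last at the 75th percentile) and in Saos-2 to 0.01 (normexp). In the rma-like and uncorrected values the changes of miR-34b* turned to 0.0 and 0.0 (day 7 to 14, Sa/CD99), -0.22 and -0.03 (day 0 to 7, Saos-2) and 0.15 and 0.03 (day 7 to 14, Saos-2).

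Counts of called miRNAs moved as follows. As filed, where cell type and slide cannot be told apart, they were 0 at day 7 (7 in the table), 91 over all days (6), and 0 for the interaction (4) and for the changes from day 0 to 7 (70 in Sa/CD99, 80 in Saos-2), day 7 to 14 in Sa/CD99 (43) and day 0 to 14 (163 and 122). In the rma-like values they were 11, 4 and 11 at days 0, 7 and 14 (6, 7 and 20), 2 over all days and 1 from day 7 to 14 in Saos-2 (0). Uncorrected values gave 1, 2 and 4, with 0 over all days and 27 from day 7 to 14 in Sa/CD99. Normexp gave 0, 0 and 1, with 0 over all days and 1 for the interaction. The 75th percentile gave 3 at day 0, 12 at day 14 and 1 from day 7 to 14 in Saos-2. Undetected values left missing gave 0 at day 0, over all days and for the interaction, and 43, 9 and 103 for days 0 to 7, 7 to 14 and 0 to 14 in Sa/CD99. Without a filter the same changes gave 688, 11 and 760, and in Saos-2 700 and 727 for days 0 to 7 and 0 to 14. With miRNAs detected on all arrays, which leaves out miR-34a, counts were 0, 0 and 7 at days 0, 7 and 14, 0 over all days and for the interaction, 31, 10 and 82 in Sa/CD99, and 39 and 64 in Saos-2. Only the 2 groups compared gave 74 from day 7 to 14 in Sa/CD99, and slide as a term gave 2 over all days.

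Without 1 array at a time, miR-34a ranged from 6.35 to 6.53 at day 0, 1.82 to 4.38 at day 7, 0.18 to 2.16 at day 14 and 3.14 to 3.99 over all days. Its change from day 0 to 14 ranged from -0.51 to -0.27 in Sa/CD99 and 3.89 to 5.87 in Saos-2, from day 0 to 7 from -0.22 to 0.13 in Sa/CD99 and 2.02 to 4.57 in Saos-2, where the call was lost without day 0 replicate 1, day 0 replicate 2 or day 7 replicate 1, and from day 7 to 14 in Saos-2 from 0.3 to 2.86. Its interaction ranged from an adjusted p of 0.0214 to 0.398, and passed without Saos-2 day 7 replicate 1 (0.0288) or replicate 2 (0.0214). miR-34c-5p ranged from 2.18 to 4.24 at day 7, 2.3 to 4.69 at day 14 and 1.86 to 2.65 over all days, passing there without Sa/CD99 day 14 clone 22 or Saos-2 day 7 replicate 2; in Sa/CD99 from 3.8 to 4.4 (day 0 to 7), 2.01 to 4.4 (day 0 to 14) and -2.08 to 0.3 (day 7 to 14), and in Saos-2 from -0.07 to 1.98 (day 0 to 7). miR-34b* ranged from 2.2 to 4.68 at day 7 and 0.01 to 4.75 at day 14, where it met the rule for calls without clone 22 (4.75), and from -0.27 to 4.46 (day 0 to 14, Sa/CD99) and -0.07 to 2.41 (day 0 to 7, Saos-2). Counts ranged from 11 to 26, 8 to 28 and 9 to 37 at days 0, 7 and 14, 4 to 20 over all days, 3 to 26 for the interaction, 45 to 60, 5 to 22 and 138 to 140 in Sa/CD99 (days 0 to 7, 7 to 14, 0 to 14) and 61 to 114, 1 to 19 and 65 to 123 in Saos-2. Counts moved by over 1.5 times without any of the 4 arrays at day 0 and from day 7 to 14 in either cell type, without Saos-2 replicate 1 at day 7 (28), without clone 36 (13), Saos-2 replicate 1 (37) or replicate 2 (9) at day 14, and, over all days, without Saos-2 day 0 replicate 1 (17), day 7 replicate 2 (20) or day 14 replicate 1 (20). They did so from day 0 to 7 in Sa/CD99 without day 7 clone 36 (45), from day 0 to 14 in Saos-2 without day 0 replicate 2 (81) or day 14 replicate 1 (65), and for the interaction without Sa/CD99 day 0 clone 22 (7) or any Saos-2 array but day 14 replicate 2 (10 to 26).

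With the replicate number as a block (correlation 0.12), the miR-34a adjusted p was 0.00852 at day 0 and 0.0232 over all days, and the count over all days was 3; no call of a named miRNA changed. A random slide block was not run, since each group lay on 1 slide. With undetected values missing, miR-34a had no value at day 0 or over all days.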
